A study of Homo sapiens with 36 samples.

Results

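The genes described here make cholesterol and fatty acids, or control or answer to that synthesis. They are 37 of the 23146 loci in each deposited table, found by symbol from a list of 38 names; the remaining name, MSMO1, is the current symbol of SC4MOL, which is among the 37. They comprise 18 enzymes of sterol synthesis, 5 genes that regulate or move sterols, 11 genes of fatty acid synthesis and 3 genes of sterol export and lipoprotein receptor turnover. The cells were MRC-5, a fibroblast line from human fetal lung, and 36 RNA libraries were made from 4 conditions at 3 times, with 3 libraries in each group. GFP cells carried a lentivirus encoding GFP. FD cells carried the same GFP virus and received 10 µM forskolin together with 1 µM dorsomorphin; forskolin raises cyclic AMP through adenylyl cyclase, and dorsomorphin blocks AMPK and BMP receptors. The virus of N cells encoded HA-tagged NEUROG2, a proneural transcription factor, and NFD cells carried the NEUROG2 virus and received both molecules at the same doses. RNA was taken at 0.5, 1 and 2 DPT, days counted in every condition from the addition of the molecules to the FD and NFD cultures. FD, N and NFD cells were in neuron induction medium with N-2 and B-27 supplements and no listed serum. The labels disagree for GFP cells, since 1 field gives medium with 15% serum and another gives the induction medium, so a change of medium cannot be told apart from the treatment in a comparison with GFP. The promoter in the viruses, the share of cells transduced, and whether the 3 libraries of a group were separate cultures are not given in the sources used here.

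Cells make sterols from acetyl-CoA by way of mevalonate, farnesyl diphosphate, squalene and lanosterol, and make fatty acids from acetyl-CoA by way of malonyl-CoA. Both sets of genes are transcribed under the SREBP factors, encoded by SREBF1 and SREBF2, which the escort protein SCAP carries out of the endoplasmic reticulum when sterols are low and which INSIG proteins retain there when sterols are high. LXR receptors, which bind oxidised sterols, act the other way on sterol balance by raising export through ABCA1 and ABCG1 and receptor turnover through MYLIP, and they also raise SREBF1. Fibroblasts in serum take up lipoproteins, and cells in medium without serum depend on their own synthesis.

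The promoters of 5 of these genes are shown because their letters bear on factors named with this pathway: NF-Y, which works with SREBP and binds the CCAAT box, and CREB, which answers to the cyclic AMP that forskolin raises and binds TGACG and its palindrome TGACGTCA. Each line is the 250 bases before the start of the gene from the RefSeq promoter table (GRCh38.p14), 5′ to 3′ on the strand of the gene, and capitals mark CCAAT and TGACG on either strand, ATTGG and CGTCA being their reverse.
HMGCS1 (minus strand, chr5:43313413-43313662): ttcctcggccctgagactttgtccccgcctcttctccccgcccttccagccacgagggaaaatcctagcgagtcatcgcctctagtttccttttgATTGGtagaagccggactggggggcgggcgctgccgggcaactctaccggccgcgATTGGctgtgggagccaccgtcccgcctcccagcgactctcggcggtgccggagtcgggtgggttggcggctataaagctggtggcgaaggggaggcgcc
SC4MOL (plus strand, chr4:165327419-165327668): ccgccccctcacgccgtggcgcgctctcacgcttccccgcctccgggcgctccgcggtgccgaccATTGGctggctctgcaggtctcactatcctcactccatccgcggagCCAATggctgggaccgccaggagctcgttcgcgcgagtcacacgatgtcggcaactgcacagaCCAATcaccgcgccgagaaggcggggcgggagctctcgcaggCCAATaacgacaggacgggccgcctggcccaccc
INSIG1 (plus strand, chr7:155297628-155297877): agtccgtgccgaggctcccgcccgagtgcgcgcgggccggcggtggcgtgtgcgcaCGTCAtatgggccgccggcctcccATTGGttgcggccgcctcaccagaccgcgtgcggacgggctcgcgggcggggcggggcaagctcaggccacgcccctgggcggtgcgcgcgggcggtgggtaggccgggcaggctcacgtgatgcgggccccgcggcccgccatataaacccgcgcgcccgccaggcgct
FADS1 (minus strand, chr11:61817004-61817253): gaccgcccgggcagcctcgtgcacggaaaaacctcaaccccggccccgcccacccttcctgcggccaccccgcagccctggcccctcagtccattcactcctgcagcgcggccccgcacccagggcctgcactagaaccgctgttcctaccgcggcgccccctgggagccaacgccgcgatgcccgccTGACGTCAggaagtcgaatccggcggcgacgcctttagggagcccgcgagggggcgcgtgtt
ELOVL5 (minus strand, chr6:53348951-53349200): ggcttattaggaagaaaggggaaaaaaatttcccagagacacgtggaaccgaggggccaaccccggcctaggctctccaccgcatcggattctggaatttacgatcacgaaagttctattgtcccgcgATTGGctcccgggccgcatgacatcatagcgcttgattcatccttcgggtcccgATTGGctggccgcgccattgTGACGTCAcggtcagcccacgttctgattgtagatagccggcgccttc
The windows shown for SC4MOL, HMGCS1 and INSIG1 held 4, 2 and 1 CCAAT matches. HMGCS1 has 2 windows in the table, 1 for each of its listed starts, and the one not shown held 0 CCAAT matches. FADS1 and ELOVL5 each held the palindrome TGACGTCA, which contains TGACG on both strands and starts 62 and 48 bases before the gene start. The table had windows for 32 of the 37 genes. CCAAT stood in a window of 13 of the 15 sterol enzymes and 6 of the 10 fatty acid genes that had one, against 37.0% of all 27305 genes in the table. TGACG stood in 7 of the 15 and 5 of the 10, against 24.9% of all genes. TGACGTCA was in none of the 15 sterol enzymes and in 2 of the 10 fatty acid genes, FADS1 and ELOVL5, against 2.03% of all genes. The sterol response pattern TCACNCNAC was in 2 of the 15, FDPS and HSD17B7, and in 3 of the 10, against 2.48% of all genes. A match describes the letters of these windows and says nothing of which factor binds there.

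The deposited tables give 1 FPKM (fragments per kilobase of transcript, scaled to library size) per group of 3 libraries, so no spread between libraries can be shown, and a gene is said here to have risen or fallen where the authors' deposited q-value was at or under 0.05. The smallest q the tables hold is 0.000151. Fibroblast genes marked the GFP cells, with a summed FPKM over 9 markers of 8919, 9954 and 10920 at 0.5, 1 and 2 DPT, while the adipocyte markers ADIPOQ, PLIN1, LEP, CIDEC and PLIN4 summed to under 1 FPKM in every group. The fibroblast sum was 6577, 6635 and 6157 in FD cells and 6560, 6621 and 6712 in N cells. In NFD cells it was 4656, 2857 and 1502, and all 9 markers fell at 2 DPT in the authors' deposited table. VIM was the largest part of the sum, at 4453 FPKM in GFP cells at 0.5 DPT, and the markers did not move alike in N cells. At 2 DPT COL3A1 was at 2100 FPKM in N cells against 1086 in GFP cells, and DCN at 175 against 1582. NEUROG2 was at 2616, 2565 and 2641 FPKM in N cells and at 36.7, 18.5 and 15.3 FPKM in GFP cells, and the tables list it at 0 in NFD cells with the mark for too many fragments, which is no level. The forskolin-responsive gene NR4A1 was at 24.4 FPKM in FD cells and 36.4 in NFD cells at 0.5 DPT, against 0.504 in GFP cells. In bulk RNA, fewer cells of a type and less RNA per cell cannot be told apart. The part of the loss of fibroblast markers in the values below was not tested.

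Summed over the sterol enzymes, the level was highest in FD cells at 0.5 DPT and was low in every condition by 2 DPT. Their summed group FPKM was 1521, 1416 and 516 in GFP cells at 0.5, 1 and 2 DPT, and 2861, 1443 and 389 in FD cells. In N cells the sum was 639, 414 and 290, and in NFD cells 1043, 615 and 362. FD cells thus held 188% of the GFP sum at 0.5 DPT, 102% at 1 DPT and 75.4% at 2 DPT, whereas N cells held 42, 29.2 and 56.1% and NFD cells 68.6, 43.5 and 70.1%. The fatty acid genes summed to 1014, 1117 and 414 FPKM in GFP cells, 1610, 1549 and 391 in FD cells, 528, 390 and 305 in N cells and 670, 554 and 368 in NFD cells. The GFP cells themselves changed between times, since all 18 enzymes and all 11 fatty acid genes were lower at 2 than at 1 DPT, by a median log2 ratio of -1.27 and -1.26. Over the 11977 loci at 1 FPKM or more, 49.8% were lower and the median was 0.00. These ratios set groups from separate tables side by side, and a joint scaling of the times is not given in the sources used here. For most enzymes the conditions also came closer together. The highest condition exceeded the lowest by a median of 4.07-fold over the enzymes at 0.5 DPT, 3.93-fold at 1 DPT and 2.12-fold at 2 DPT. ACAT2 went the other way, from 3.25-fold at 0.5 DPT to 5.14-fold at 2 DPT. This ratio was not taken over all loci, so the narrowing is not shown to be particular to these genes.

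**Figure D1:**
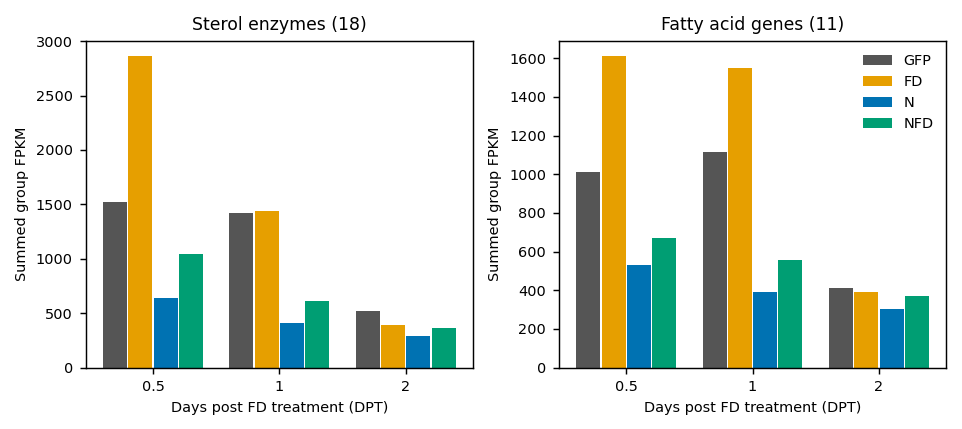
Summed group FPKM of the 18 sterol enzymes (left) and the 11 fatty acid genes (right) by days post FD treatment; each bar is the sum of the authors' group values in 1 condition. FD bars stand highest at 0.5 DPT (2861 and 1610), N bars lowest at every time, and all 4 conditions are at 516 or less by 2 DPT.

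Against GFP at the same time, 14 of the 18 sterol enzymes rose while 1 fell in FD cells at 0.5 DPT in the authors' deposited table, where 17.8% of all tested loci rose and 18.8% fell. At 1 DPT 6 rose and 6 fell, against 16.0% and 22.3% of all loci, and at 2 DPT 1 rose and 11 fell, against 16.9% and 21.6%. The median log2 fold of the 18 was 0.82, -0.01 and -0.36, while that of all tested loci lay between -0.04 and 0.04 in each of the 9 tables. The value of -0.01 became 0.03 when the median of all loci was subtracted, so the 1 DPT median has no direction. In N cells 0 rose and 17 fell at 0.5 DPT (26.2% and 24.3% of all loci), 0 rose and 18 fell at 1 DPT (25.4% and 29.3%), and 2 rose and 14 fell at 2 DPT (27.1% and 30.0%), with medians of -1.27, -1.79 and -0.84 in the authors' deposited tables. In NFD cells 5 rose and 12 fell at 0.5 DPT (32.1% and 31.3% of all loci), 0 and 15 at 1 DPT (32.6% and 33.2%), and 1 and 12 at 2 DPT (34.1% and 32.0%), with medians of -0.76, -1.17 and -0.73. FD, N and NFD cells of a time are each set against the same GFP libraries, so their values are given side by side. Where a gene is said below to rise or fall in several of these comparisons, they are not that many separate results.

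**Figure D2:**
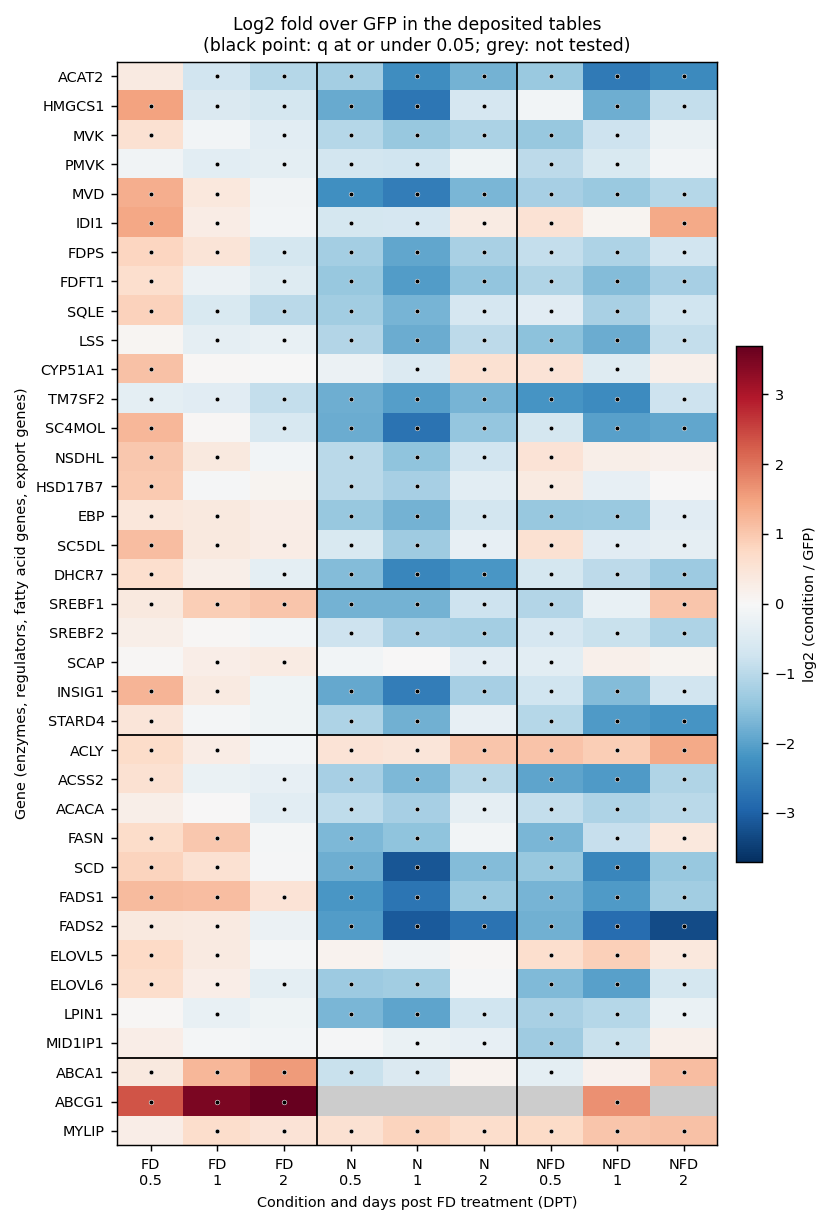
Deposited log2 fold over GFP of the 37 genes (rows: enzymes, regulators, fatty acid genes, export genes) in FD, N and NFD cells at 0.5, 1 and 2 DPT (columns); red is higher than GFP, blue lower, a black point marks q at or under 0.05 and grey was not tested. The enzyme rows are mostly red in FD at 0.5 DPT (14 of 18 rose) and blue under N at 1 DPT (18 of 18 fell); ACLY, ELOVL5 and MYLIP rows are red in NFD.

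HMGCS1, which joins acetoacetyl-CoA and acetyl-CoA and 1 of whose promoter windows is shown above, was at 74.2, 75.3 and 15.3 FPKM in GFP cells and at 208, 51.9 and 9.72 FPKM in FD cells. N cells had 20.5, 11.8 and 9.9 FPKM and NFD cells 69.1, 21.6 and 8.34. FD was thus above GFP at 0.5 DPT and below it at 1 and 2 DPT, and the authors' deposited log2 folds of 1.49, -0.54 and -0.66 all passed at the smallest q. In NFD cells the fold at 0.5 DPT was -0.10 (deposited q = 0.449), followed by falls of -1.80 and -0.88. MVD, the mevalonate diphosphate decarboxylase, was at 120, 84.2 and 34.9 FPKM in GFP cells, 303, 110 and 32.2 in FD cells, 24.6, 14.2 and 10.9 in N cells and 50.5, 32.2 and 16.8 in NFD cells. Its fold of -2.28 in N cells at 0.5 DPT was the lowest among the 18 enzymes in that table. ACAT2, the thiolase that opens the route, did not pass in FD cells at 0.5 DPT (137 in GFP against 174 FPKM, deposited log2 fold 0.34, q = 0.069) and fell in the 8 other tables, to -2.61 in NFD cells at 1 DPT. MVK and PMVK, the kinases that phosphorylate mevalonate in turn, differed in FD cells at 0.5 DPT, where MVK rose (31.6 to 46.6 FPKM, log2 fold 0.56) and PMVK did not pass (13.3 and 12.2 FPKM, log2 fold -0.13, q = 0.417) in the authors' deposited table.

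IDI1 rose and FDPS fell in N and NFD cells at 2 DPT. IDI1, the isomerase that supplies a building block of farnesyl diphosphate, was at 128, 83.5 and 34.6 FPKM in GFP cells, 348, 102 and 32.2 in FD cells, 81.6, 54.7 and 42.5 in N cells and 185, 88.8 and 90.6 in NFD cells. In N cells its deposited log2 fold went from -0.65 and -0.61 to 0.30 (q = 0.0173), and in NFD cells it was 0.53, 0.09 (q = 0.522) and 1.39. IDI1 was the only enzyme that rose in NFD cells at 2 DPT, and it and CYP51A1 were the 2 that rose in N cells. FDPS, the farnesyl diphosphate synthase, was at 203, 225 and 85 FPKM in GFP cells, the highest of the 18 enzymes at each time. It had 351, 316 and 54.5 FPKM in FD cells, 84.1, 59.6 and 36.9 in N cells and 111, 102 and 51.9 in NFD cells, and fell in all 6 tables of N and NFD. The deposited locus of IDI1 also spans its neighbour IDI2, that of FDPS spans RUSC1 and that of ACAT2 spans TCP1, and whether reads were assigned by strand is not given in the sources used here. FDPS and HSD17B7 also have close copies in these tables, FDPSL2A and HSD17B7P2, so reads may have been split between them.

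SQLE, the squalene epoxidase, was at 72.6, 66.5 and 27.5 FPKM in GFP cells, 131, 45.3 and 13.7 in FD cells, 29.4, 20.3 and 17.9 in N cells and 54.2, 29.1 and 16.4 in NFD cells. FD cells were the highest of the 4 conditions for SQLE at 0.5 DPT and the lowest at 2 DPT, with deposited log2 folds of 0.85, -0.55 and -1.01. SC4MOL, the methylsterol monooxygenase with 4 CCAAT boxes in its window, was at 176, 178 and 44 FPKM in GFP cells and at 417, 184 and 29.1 FPKM in FD cells. It had 49.1, 27.1 and 16.5 FPKM in N cells and 112, 44.4 and 11.6 in NFD cells, and its deposited fold of -2.72 in N cells at 1 DPT was the lowest of the 18 enzymes in that table. FDFT1, the squalene synthase, rose in FD cells at 0.5 DPT (173 to 268 FPKM, log2 fold 0.63) and fell in all 6 N and NFD tables, between -1.10 and -2.08. DHCR7, which reduces the last double bond on 1 route to cholesterol, was at 60.1, 57.5 and 23.3 FPKM in GFP cells against 19.9, 10.9 and 5.26 in N cells, deposited log2 folds of -1.59, -2.40 and -2.14. LSS, the lanosterol synthase, did not pass in FD cells at 0.5 DPT (102 and 107 FPKM, q = 0.646) in the authors' deposited table.

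In NFD cells at 0.5 DPT 5 of the 18 enzymes rose, a share near the 32.1% of all loci. CYP51A1 (lanosterol demethylase), NSDHL and HSD17B7 (dehydrogenases that act on the methylsterols) and SC5DL (the lathosterol desaturase) rose there with deposited log2 folds of 0.50, 0.51, 0.33 and 0.57, and IDI1 was the other. In the same deposited table the late enzymes SC4MOL, DHCR7, EBP, LSS and TM7SF2 fell, with log2 folds of -0.65, -0.64, -1.41, -1.52 and -2.17. NSDHL was at 42, 33.3 and 16.7 FPKM in GFP cells, 84.3, 42.8 and 15.6 in FD cells, 21, 11.8 and 10.2 in N cells and 59.7, 38.6 and 18.7 in NFD cells. N cells were lowest for NSDHL at each time. CYP51A1 was at 81.4, 96.1 and 33.9 FPKM in GFP cells against 70.3, 68.2 and 49.7 in N cells, with deposited log2 folds of -0.21 (q = 0.0979), -0.50 and 0.55, so it fell at 1 DPT and rose at 2 DPT. SC5DL was the only enzyme that rose in FD cells at all 3 times (14.7, 18 and 7.67 FPKM in GFP cells against 32.5, 22.9 and 9.23), and its fold declined from 1.14 to 0.35 and 0.27 (q = 0.0368 at 2 DPT) in the authors' deposited tables. TM7SF2, a sterol reductase, was the only enzyme that fell in FD cells at all 3 times, with 22.1, 21.6 and 9.47 FPKM in GFP cells against 17, 16.1 and 5.14, and it fell in the 6 other tables too. EBP, the sterol isomerase, rose in FD cells at 0.5 and 1 DPT and fell in all 6 N and NFD tables.

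**Figure D3:**
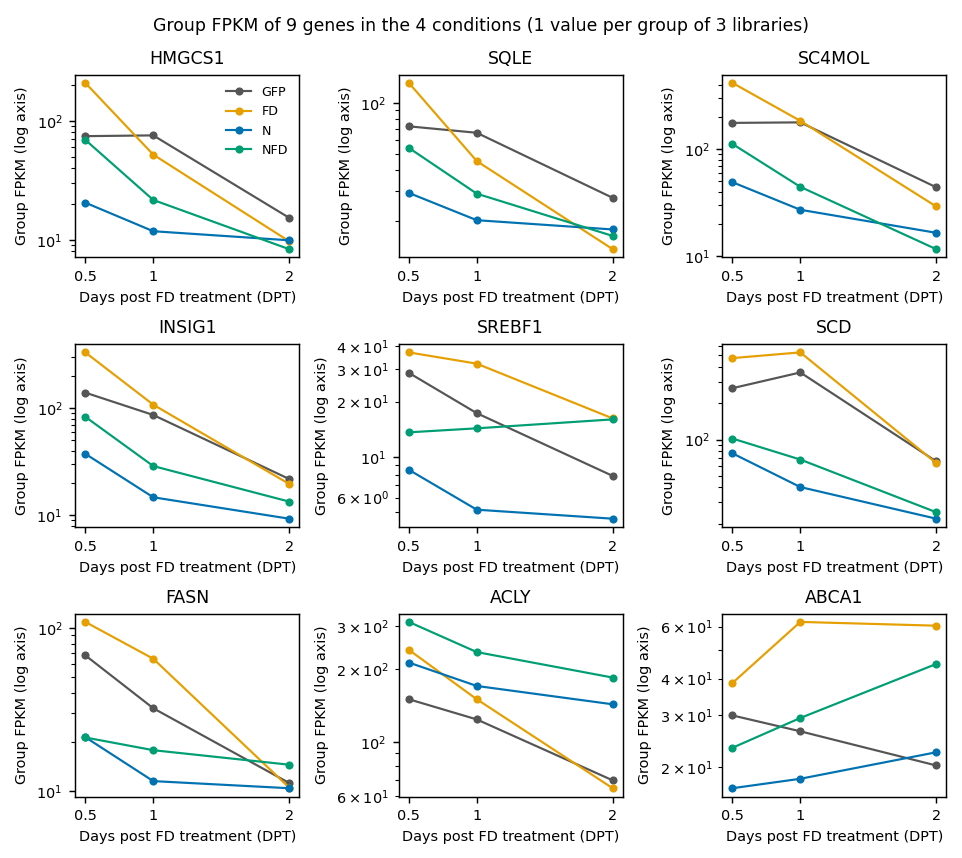
Group FPKM (log axis) of 9 genes against days post FD treatment in GFP, FD, N and NFD cells; each point is the authors' value for 1 group of 3 libraries. HMGCS1, SQLE and SC4MOL start highest in FD cells (208, 131 and 417) and end near or below GFP; ABCA1 climbs in NFD cells (23.3 to 44.8), SREBF1 lies between 13.6 and 16 there, and ACLY stays above GFP in N and NFD cells.

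Among the 5 regulators, SREBF1 rose in FD cells at all 3 times and INSIG1 at the first 2. INSIG1, the retention protein, was at 140, 86.5 and 21.8 FPKM in GFP cells, 333, 108 and 19.6 in FD cells, 37.5, 14.7 and 9.27 in N cells and 83.2, 28.8 and 13.4 in NFD cells. Its deposited log2 folds were 1.25, 0.32 and -0.15 (q = 0.255) in FD cells and lay between -0.70 and -2.56 in N and NFD cells, where it fell in all 6 tables. SREBF1 was at 28.7, 17.3 and 7.87 FPKM in GFP cells, 37.1, 32.2 and 16.2 in FD cells, 8.5, 5.15 and 4.6 in N cells and 13.6, 14.3 and 16 in NFD cells. It rose at all 3 times in FD cells, with deposited log2 folds of 0.37, 0.90 and 1.04, fell at all 3 times in N cells, and went from -1.08 through -0.28 (q = 0.0895) to 1.02 in NFD cells. GFP cells lost SREBF1 over time while NFD cells held it near 13.6 to 16 FPKM. SREBF2 did not pass in FD cells (30.8, 35 and 26 FPKM in GFP against 36.1, 36.1 and 24.1) and fell in all 6 N and NFD tables, between -0.63 and -1.26. SCAP lay between 14.1 and 25.1 FPKM in all 12 groups. STARD4, a carrier of cholesterol between membranes, was at 42.9, 48.6 and 18.2 FPKM in GFP cells against 20.5, 11.4 and 4.02 in NFD cells, deposited log2 folds of -1.06, -2.09 and -2.18, and 19.6, 14.2 and 14.7 in N cells, where the fold at 2 DPT was -0.31 (q = 0.467). The deposited loci of STARD4 and SREBF1 also span neighbouring genes, C5orf13 and RAI1. Over the 5 genes, 3, 3 and 2 rose while 0 fell in FD cells at 0.5, 1 and 2 DPT, 4 fell and 0 rose at each time in N cells, and 5, 3 and 3 fell and 0, 0 and 1 rose in NFD cells in the authors' deposited tables. Of all loci, 16.0 to 17.8% rose in FD cells, 24.3 to 30.0% fell in N cells and 31.3 to 33.2% fell in NFD cells.

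Most fatty acid genes rose in FD cells at 0.5 DPT and fell in N and NFD cells. In the authors' deposited tables, among the 11, 8 rose while 0 fell in FD cells at 0.5 DPT, 7 rose and 1 fell at 1 DPT, and 1 rose and 3 fell at 2 DPT, with median log2 folds of 0.64, 0.27 and -0.11. Of the 7 that rose at 1 DPT, 3 passed a q of 0.01, and 5 genes rose when p-values were adjusted over 1 table. In N cells 1 rose and 8, 9 and 7 fell, with medians of -1.34, -1.48 and -0.32. In NFD cells 2, 2 and 3 rose and 9, 9 and 7 fell, with medians of -1.39, -1.14 and -0.65. The background shares of each table are those given above for the enzymes.

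ACLY, which cleaves citrate to supply acetyl-CoA to both routes, went the other way from most of the set in NEUROG2 cells. It was at 150, 124 and 69.8 FPKM in GFP cells, 239, 150 and 64.8 in FD cells, 212, 170 and 143 in N cells and 311, 234 and 184 in NFD cells. NFD cells were highest at each time, and the deposited log2 folds were 0.50, 0.45 and 1.04 in N cells and 1.06, 0.91 and 1.4 in NFD cells. ACSS2, which makes acetyl-CoA from acetate, was at 27.6, 33.1 and 16.7 FPKM in GFP cells, 11.8, 10.4 and 8.19 in N cells and 7.16, 7.77 and 7.72 in NFD cells, and fell in all 6 of these tables. ACACA, which makes malonyl-CoA, fell in all 6 as well, between -0.32 and -1.24. FASN, the synthase that builds palmitate, was at 68, 32.2 and 11.2 FPKM in GFP cells, 109, 64.8 and 10.5 in FD cells, 21.4, 11.5 and 10.4 in N cells and 21.3, 17.8 and 14.5 in NFD cells. Between 0.5 and 2 DPT the GFP level dropped from 68 to 11.2 FPKM and the NFD level from 21.3 to 14.5, and its deposited log2 fold in NFD cells went from -1.68 and -0.85 to 0.38 (q = 0.00305).

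The 2 lowest folds of the set in N cells at 1 DPT were those of the desaturases SCD and FADS2. SCD, which puts the first double bond into stearate, was at 267, 361 and 65.9 FPKM in GFP cells, 475, 530 and 63.8 in FD cells, 76.9, 40.3 and 22 in N cells and 102, 68.2 and 24.9 in NFD cells. Its log2 fold of -3.16 in N cells at 1 DPT was the lowest of the 37 genes in that deposited table. FADS1 and FADS2 desaturate polyunsaturated chains. FADS1, whose promoter with TGACGTCA is shown above, was at 101, 103 and 30.5 FPKM in GFP cells, 227, 227 and 43.4 in FD cells, 22.8, 15.7 and 11.7 in N cells and 30.6, 24 and 12.5 in NFD cells. It was the only fatty acid gene that rose at all 3 times in FD cells (deposited log2 folds 1.17, 1.14 and 0.51). FADS2 was at 219, 290 and 114 FPKM in GFP cells, 279, 366 and 97.8 in FD cells, 52.3, 33.5 and 17.3 in N cells and 63.8, 41.3 and 11.6 in NFD cells, and reached -3.30 in NFD cells at 2 DPT. ELOVL5, an elongase of polyunsaturated chains and the other gene with TGACGTCA, was at 51.5, 58.2 and 41.1 FPKM in GFP cells, 85.6, 72.7 and 39.5 in FD cells, 56.4, 53.6 and 42.7 in N cells and 79.1, 107 and 54.4 in NFD cells. It did not pass in N cells at any time and rose in NFD cells at all 3, with deposited log2 folds of 0.62, 0.88 and 0.40. ELOVL6, which elongates palmitate, fell in NFD cells at all 3 times (20.3, 15.9 and 5.69 FPKM in GFP cells against 6.56, 3.95 and 3.62). LPIN1, a phosphatidate phosphatase, fell in all 6 N and NFD tables. MID1IP1, which promotes assembly of acetyl-CoA carboxylase, was at 41.6, 33.7 and 29.3 FPKM in GFP cells against 16.6, 19 and 33.2 in NFD cells, deposited log2 folds of -1.32, -0.83 and 0.18 (q = 0.183).

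ABCA1 and ABCG1 rose in FD cells at all 3 times, and MYLIP rose in N and NFD cells at all 3. ABCA1, which exports cholesterol to apolipoproteins, was at 30, 26.5 and 20.3 FPKM in GFP cells, 38.6, 62.2 and 60.4 in FD cells, 17, 18.3 and 22.5 in N cells and 23.3, 29.4 and 44.8 in NFD cells. The deposited log2 folds were 0.36, 1.23 and 1.57 in FD cells and -0.36, 0.15 (q = 0.262) and 1.14 in NFD cells. ABCG1, an exporter to lipoproteins, was low throughout, at 0.175, 0.194 and 0.165 FPKM in GFP cells against 0.884, 2.15 and 2.11 in FD cells, with deposited log2 folds of 2.34, 3.47 and 3.68. It was tested in 1 of the 6 N and NFD tables, NFD at 1 DPT, where it rose (0.629 FPKM, log2 fold 1.70). MYLIP, a ubiquitin ligase for lipoprotein receptors, was at 3.59, 3.81 and 4.9 FPKM in GFP cells, 5.27, 6.71 and 7.65 in N cells and 5.92, 7.82 and 10.4 in NFD cells, and rose in all 6 N and NFD tables. Among the 3 genes tested, 2, 3 and 3 rose in FD cells at 0.5, 1 and 2 DPT in the authors' deposited tables, where 17.8, 16.0 and 16.9% of all loci rose.

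Whether the fold of a condition over GFP changed with time was tested on the difference of 2 deposited log2 folds. Standard errors were taken from the deposited p-values, with Benjamini-Hochberg adjustment over all loci tested in both tables. This is an approximate two-sided z test, and genes are called lower or higher by their fold where the adjusted p was at or under 0.05. Its standard errors are upper bounds where a p-value was the smallest deposited. These bounds grow with the fold, so a gene not called may have changed more than one called. In FD, N and NFD cells 5, 13 and 10 of the 18 enzymes had the smallest p-value at both 0.5 and 2 DPT. HMGCS1 in N cells, with folds of -1.86 and -0.63 at these times, was not called. In FD cells the fold at 2 DPT was lower than at 0.5 DPT for 14 of the 18 enzymes and higher for 0, where 5.83% of all loci were lower and 5.02% higher. The median difference of the 18 was -1.11, and HMGCS1 had the lowest, -2.14 (SE 0.40), followed by SQLE with -1.86 and SC4MOL with -1.84. Of the fatty acid genes 8 of 11 were lower and 0 higher, with a median of -0.77. ABCA1 was higher by 1.21 (SE 0.40). In N cells the fold was higher at 2 than at 0.5 DPT for 2 of 18 enzymes, IDI1 by 0.95 and CYP51A1 by 0.76. It was also higher for 2 of 11 fatty acid genes, FASN by 1.57 and ELOVL6 by 1.29. The fold was lower for 0, where 4.99% of all loci were higher and 7.48% lower. The N levels of these genes fell over that time while GFP fell further. They went from 81.6 to 42.5 FPKM for IDI1 and from 70.3 to 49.7 for CYP51A1. FASN went from 21.4 to 10.4 and ELOVL6 from 8.02 to 5.49. In NFD cells the fold was higher for 3 enzymes (MVK, PMVK and EBP) and lower for 3 (HMGCS1, SC4MOL and SC5DL). Of all loci, 10.6% were higher and 12% lower, and 3 of 18 enzymes in each direction is not far above those shares. At an adjusted p of 0.01 in the same test, 1 enzyme was called, as lower. The fold was also higher for 3 fatty acid genes (FASN, LPIN1 and MID1IP1). The NFD levels of PMVK and MID1IP1 were higher at 2 DPT, and those of MVK, EBP, FASN and LPIN1 were lower. SREBF1 had the largest difference of the 37 genes in NFD cells, 2.1 (SE 0.37), from 13.6 and 28.7 FPKM in NFD and GFP cells at 0.5 DPT to 16 and 7.87 at 2 DPT.

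N and FD cells were in the same medium by every label, so their difference does not turn on the medium of GFP cells. They differ in both the virus and the molecules, which cannot be told apart in this comparison. At 0.5 DPT all 18 enzymes were lower in N than in FD cells in the approximate z test, at 1 DPT 17 were lower, and 0 were higher at either time. The shares of all loci were 17.5% lower and 17.3% higher at 0.5 DPT and 18.5% and 17.1% at 1 DPT. At 2 DPT 8 were lower and 2 higher (IDI1 and CYP51A1), against 19.4% and 17.3%. The median differences were -1.98, -1.63 and -0.65, and MVD had the lowest at 0.5 DPT, -3.62 (SE 0.65). Of the 11 fatty acid genes 9, 9 and 5 were lower, with FADS1 at -3.32, -3.85 and -1.89, and ACLY was higher at 2 DPT by 1.14. NFD and FD cells share the medium and both molecules and differ in the virus. Here 14 of 18 enzymes were lower and 0 higher in NFD cells at 0.5 DPT (19.6% and 16.4% of all loci), 13 and 0 at 1 DPT (23.1% and 21.0%), and 7 and 1 at 2 DPT (23.0% and 21.6%). Of the fatty acid genes 9, 9 and 4 were lower and 0, 1 and 3 were higher, the latter being ACLY at 1 DPT and ACLY, FASN and ELOVL5 at 2 DPT.

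NFD and N cells share the virus and the medium and differ in the molecules. In NFD cells 6 of 18 enzymes were higher at 0.5 DPT, 4 at 1 DPT and 3 at 2 DPT, and 0 were lower at any time in the approximate z test. The shares of all loci that were higher were 5.51%, 9.39% and 9.67%, and 6.91%, 9.06% and 9.02% were lower. The 6 were HMGCS1, IDI1, CYP51A1, NSDHL, HSD17B7 and SC5DL, and the differences ran from 0.71 for CYP51A1 to 1.76 for HMGCS1 (SE 0.47). SC4MOL, with log2 folds of -1.85 in N and -0.65 in NFD cells at 0.5 DPT, was not called, nor was MVD with -2.28 and -1.24. Their folds lie further apart than those of CYP51A1, so the 6 are not simply the enzymes that differed most. IDI1 and NSDHL were higher at all 3 times, by 1.18, 0.70 and 1.09 and by 1.51, 1.71 and 0.87. Over the 18 enzymes the median difference was 0.80, 0.67 and 0.24. Of the 11 fatty acid genes 0, 1 and 2 were higher (ELOVL5 at 1 DPT by 1.00, FASN and MID1IP1 at 2 DPT by 0.48 each) and 1, 0 and 1 were lower (MID1IP1 at 0.5 DPT by -1.29 and ELOVL6 at 2 DPT by -0.60). SREBF1 was higher in NFD than in N cells at 1 and 2 DPT, by 1.47 and 1.80, and STARD4 was lower at 2 DPT by -1.87. At 0.5 DPT 15 of the 18 enzymes had the smallest deposited p-value in both of the tables compared, so these standard errors are too large rather than too small, and an enzyme that did not pass is not shown to be alike in N and NFD cells.

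**Figure D4:**
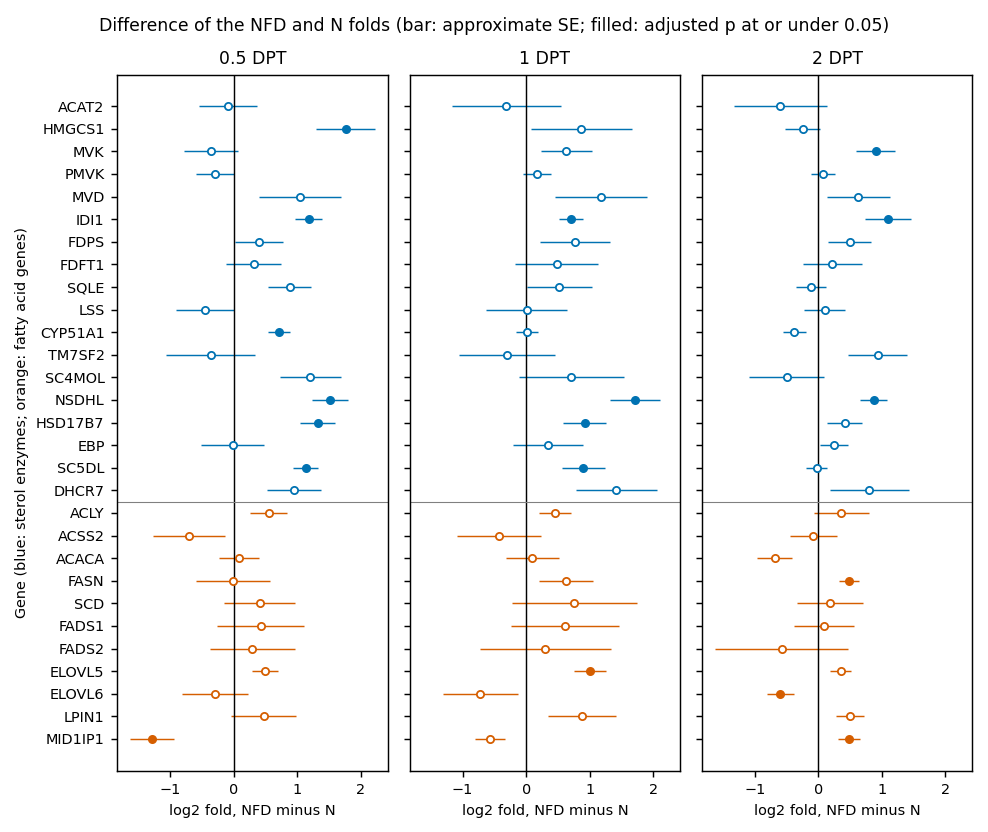
Log2 fold of NFD minus that of N cells for each sterol enzyme (blue) and fatty acid gene (orange) at 0.5, 1 and 2 DPT; bars are the approximate standard errors, and filled points have an adjusted p at or under 0.05. Filled blue points lie to the right of 0 at each time (6, 4 and 3 enzymes), while the orange points lie on both sides.

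Other genes of the pathway, from lists drawn up beside the members, did not all move with them. The FD, N and NFD tables of a time share their GFP libraries, so the tables counted below are not separate results. Among the sterol genes tested outside the set, 5 of 11 rose while 0 fell in FD cells at 0.5 DPT, 3 rose and 4 fell in N cells, and 6 of 13 rose and 4 fell in NFD cells in the authors' deposited tables. The shares of all loci that rose and fell at that time were 17.8% and 18.8% in FD cells, 26.2% and 24.3% in N cells and 32.1% and 31.3% in NFD cells. INSIG2, the paralog of INSIG1, rose in all 9 tables, from 3.24, 3.45 and 3.78 FPKM in GFP cells to 6.27, 7.69 and 5.66 in FD cells, 7.1, 7.09 and 7.38 in N cells and 15.2, 11 and 8.03 in NFD cells. TMEM97, a sterol-responsive membrane protein, fell in 8 of 9 tables. CYP46A1, the cholesterol hydroxylase of neurons, was at 0.109, 0.136 and 0.162 FPKM in GFP cells against 0.52, 1.07 and 1.92 in NFD cells, where it rose at each time. Of the fatty acid genes outside the set, 7 of 25 rose while 7 fell in FD cells at 0.5 DPT, 4 of 26 rose and 14 fell in N cells, and 5 of 25 rose and 14 fell in NFD cells. ACACB, the mitochondrial carboxylase isoform, and ELOVL4 rose in all 9 tables, and FADS3, ELOVL2 and ACSL5 fell in all 9. SLC25A1, the citrate carrier that feeds ACLY, was at 162, 140 and 87.7 FPKM in GFP cells, 71.9, 49.6 and 40 in N cells and 53.3, 41.4 and 36.3 in NFD cells, and fell in all 6 of these tables, in the direction opposite to ACLY. Of the 8 tested LXR-list genes in FD cells, 3, 4 and 3 rose and 1, 0 and 1 fell at 0.5, 1 and 2 DPT. In N cells 1 rose at each time and 5, 5 and 6 fell, and in NFD cells 1, 1 and 2 rose and 3, 4 and 4 fell in the authors' deposited tables. Of all loci, 16.0 to 17.8% rose and 18.8 to 22.3% fell in FD cells over the 3 times. In N cells 25.4 to 27.1% of all loci rose and 24.3 to 30.0% fell. In NFD cells 32.1 to 34.1% rose and 31.3 to 33.2% fell. PLTP, a phospholipid transfer protein under LXR that rose in all 6 N and NFD tables, was at 32, 54.9 and 90.6 FPKM in GFP cells, 179, 293 and 294 in N cells and 226, 329 and 424 in NFD cells, deposited log2 folds of 2.48, 2.41 and 1.70 and of 2.82, 2.58 and 2.23. NR1H3, which encodes an LXR receptor, fell at all 3 times in N cells (15.6, 13.2 and 13.3 FPKM in GFP cells against 6.42, 5.52 and 4.27) in the authors' deposited tables.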

How the data were processed

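Total RNA was made into stranded libraries and sequenced from 1 end, per the labels' protocols; the label of the molecule reads genomic DNA. TopHat 1.4.1, Cufflinks 2.1.0, Cuffdiff 2.1.0 and GRCh37 (hg19) are named in the submitters' processing notes. Each of the 9 deposited tables gives, per the file headers, the FPKM of a GFP group and of another group (1 value per group of 3 libraries), the log2 fold change, a p-value and a q-value computed by the authors. Depth, counts and values per library were not analysed here, so depth is unknown. Loci not marked OK were left out of counts. The fold's sign was checked against the FPKM pair: 0 to 3 tested loci per table had the opposite sign, none among the genes named here as members, and 6 to 18 differed by over 0.001. The deposited mark of significance is yes exactly where q is at or under 0.05.

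Calls used that q. Differences of folds were tested as the report describes. On simulated folds for FD at 2 minus 0.5 DPT (12695 genes) the test recovered 46% of shifts of 1 and 73% of shifts of 2. Of its calls there, 2.46% were false. The simulated noise was normal, independent between the folds and drawn from standard errors taken as in the test itself. No other comparison was simulated, so the share of false calls in the deposited values is not known. Python 3.11.15, numpy 2.4.6, pandas 2.3.3, scipy 1.17.1 and matplotlib 3.10.9 were used. The members and lists were chosen with earlier results of these data known. The genes named are all members, genes of the other pathway lists called in a table, and markers; the other-pathway genes given with values were picked after their values were seen. Motifs were searched in the RefSeq promoter table. Alternatives were other thresholds, adjustment within 1 table, a minimum of 1 FPKM, a pseudocount of 1, folds less the median of all loci, and a correlation of 0.5 between folds that share GFP libraries.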

Additional observations from a re-analysis of the deposited data

Results flagged for a closer look

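Folds over GFP that differed between 0.5 and 2 DPT in the approximate z test, adjusted over all loci, are given here as the log2 fold at 2 DPT less that at 0.5 DPT, and no cause was tested. In FD cells the fold was lower at 2 DPT for 23 of the 37 genes and higher for 1. Of all loci, 5.83% were lower and 5.02% higher. The lower enzymes were ACAT2 by -1.39, HMGCS1 by -2.14, MVK by -0.94, MVD by -1.46, IDI1 by -1.55, FDPS by -1.43 and FDFT1 by -1.11. Further along the sterol route, SQLE was lower by -1.86, CYP51A1 by -1.12, SC4MOL by -1.84, NSDHL by -1.10, HSD17B7 by -0.87, SC5DL by -0.87 and DHCR7 by -0.98. INSIG1 was lower by -1.40. Among the fatty acid genes, ACLY was lower by -0.78, ACSS2 by -0.86, ACACA by -0.63, FASN by -0.77, SCD by -0.87, FADS2 by -0.57, ELOVL5 by -0.80 and ELOVL6 by -1.02. ABCA1 was the gene that was higher, by 1.21.

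In N cells the fold was higher at 2 DPT for 5 of 36 tested genes and lower for 0. Of all loci, 4.99% were higher and 7.48% lower. The 5 were IDI1 by 0.95, CYP51A1 by 0.76, FASN by 1.57, ELOVL6 by 1.29 and ABCA1 by 0.96. In NFD cells 9 were higher, MVK by 1.16, PMVK by 0.88, EBP by 0.98, SREBF1 by 2.1, SCAP by 0.50, FASN by 2.06, LPIN1 by 0.95, MID1IP1 by 1.51 and ABCA1 by 1.5. The 3 that were lower were HMGCS1 by -0.77, SC4MOL by -1.27 and SC5DL by -0.91. In the same NFD comparison 10.6% of all loci were higher and 12% lower. The 3 lower genes among 36 tested are not above that share. With 1 value per group, no library could be set apart from the others of its group.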

How the results depend on the processing

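No paired analysis was possible because the tables give 1 value per group and not per library, and for the same reason no library could be left out. Counts of called genes against GFP moved by less than 1.5 times under adjustment within 1 table. A minimum of 1 FPKM could not change them, because every enzyme and fatty acid gene was above 1 FPKM in every group. Subtraction of the median of all loci kept the same q and could only drop a gene whose fold changed sign. None was dropped, so these 2 alternatives say little about the counts. Under a q of 0.01 the count of fatty acid genes in FD cells at 1 DPT went from 8 to 3. Subtracting the median of all loci turned the median of the sterol enzymes in FD cells at 1 DPT from -0.01 to 0.03. A pseudocount of 1 moved the median of the fatty acid genes from -1.34 to -1.24 in N cells at 0.5 DPT and from -0.65 to -0.53 in NFD cells at 2 DPT. Of 36 counts of differences between folds, 24 moved by less than 1.5 times at an adjusted p of 0.01 in the approximate z test. There the enzymes called went from 6 to 1 for NFD at 2 minus 0.5 DPT, from 4 to 2 and from 3 to 1 for NFD against N at 1 and 2 DPT, from 8 to 4 for NFD against FD at 2 DPT and from 10 to 5 for N against FD at 2 DPT. The fatty acid genes went from 3 to 0 for NFD against N and from 7 to 4 for NFD against FD at 2 DPT. With a correlation of 0.5 between the folds, the fatty acid genes called for NFD against N went from 1 to 3 at 0.5 DPT, from 1 to 3 at 1 DPT and from 3 to 6 at 2 DPT, and the enzymes from 3 to 5 at 2 DPT, 4 higher and 1 lower. In each case the alternative itself sets the number of calls. The unknown depth limits what an uncalled gene can show.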

Other observations

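Of the markers of blood and endothelium, HBA1 was listed at 0.0525, 0.0511 and 0.0723 FPKM in GFP cells at 0.5, 1 and 2 DPT, 4.17, 4.14 and 1.56 in N cells and 5.14, 5.99 and 8.22 in NFD cells, and it was not called in the authors' deposited tables. CDH5 was listed at 0 in GFP cells and at 0.564 and 0.651 FPKM in NFD cells at 1 and 2 DPT, where the authors' deposited tables call it. PECAM1 and VWF, on the same endothelial list, also rose in NFD cells at 1 and 2 DPT. At 1 DPT PECAM1 was at 0.0308 FPKM in GFP cells against 1.88, and VWF at 0.222 against 4.76. TEK, the remaining gene of that list, went the other way and fell in all 6 N and NFD tables. It was at 19 FPKM in GFP cells against 0.323 in NFD cells at 2 DPT. CH25H, the cholesterol hydroxylase that makes an oxysterol ligand of LXR, was at 0.361, 0.526 and 0.621 FPKM in GFP cells against 3.28, 3.7 and 2.78 in NFD cells at 0.5, 1 and 2 DPT, and rose at each time in the authors' deposited tables. SCD5, a desaturase related to SCD, was at 7.14, 10.1 and 15.8 FPKM in GFP cells against 24.7, 27 and 27 in NFD cells, the direction opposite to SCD.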
